A study of Mus musculus with 6 samples.

Results

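The 6 erythroid genes Hba-a2, Hbb-b1, Hbb-b2, Alas2, Slc4a1 and Klf1 were taken from RNA sequencing of muscle satellite cells, by name from the gene column of a single table of 23361 rows. Of the 6 names, 5 had a row of their own, and Hbb-b1 occurred only in a joint row shared with Hbb-b2. The study compared AUF1-null with wild-type mice, 3 samples each. All mice were 4 months old and, per the labels, bred through C57BL/6 with 129 background. AUF1, encoded by Hnrnpd, is an RNA-binding protein that regulates mRNA decay. Hindlimb muscle was digested with collagenase, and the cells carrying the surface proteoglycan Sdc4 were sorted for RNA extraction. No label says that samples came from separate mice, how the Hnrnpd allele was made, or that red cells were lysed or gated away.

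The deposited table gives 1 level per gene and condition on a scale taken as FPKM from the table's Cuffdiff layout, which corrects for transcript length and sequencing depth and thereby allows levels of different genes to be set side by side. Its conditions are called q2 and q1. Which of these is AUF1-null could not be settled from the labels, and Hnrnpd, at 5.59 FPKM in q2 and 7.50 FPKM in q1 in the authors' deposited table, did not settle it either (Cuffdiff q = 0.999). Every difference is therefore q2 over q1. No level per sample was analysed, so no spread stands beside a level, and whether neighbouring levels differ beyond replicate error cannot be told. Of 8 satellite cell markers, Sdc4 was the highest, at 270 FPKM in q2 and 173 FPKM in q1 in the authors' deposited table. Pax7, the defining transcription factor, was at 0.854 FPKM in q2 and 1.16 FPKM in q1. Itga7 was at 26.3 FPKM in q2 and 31.8 FPKM in q1, and Myf5 at 17.8 FPKM in q2 and 16.7 FPKM in q1. Cdh15 was at 2.43 FPKM in q2 and 2.01 FPKM in q1. All 8 markers were tested, with 5 higher in q2 and 3 lower. Their median log2 fold change was 0.18, and Cuffdiff called 0 of them.

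Red blood cells develop from marrow progenitors under the transcription factors Gata1 and Klf1, which switch on globin genes, haem synthesis and the red cell membrane. Alpha-like and beta-like globin chains pair around haem to form haemoglobin, and Alas2 makes the first intermediate of haem in this lineage. Young red cells still carry globin mRNA after losing the nucleus, whereas Klf1 transcripts mark nucleated precursors. Outside this lineage, alpha globin is also known from arterial endothelium.

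Adult mouse globin genes come as near-identical copies, which bears on each globin value given here. The following coding stretches of the alpha copies Hba-a2 and Hba-a1 and of the beta copies Hbb-bt and Hbb-bs are shown because they hold the single base, in capitals, that differs within each pair. They were cut from GENCODE M21 transcripts (GRCm38), 5′ to 3′, at chr11:32297130-32297190 (+), chr11:32284313-32284373 (+), chr7:103812656-103812713 (-) and chr7:103826665-103826722 (-).
Hba-a2: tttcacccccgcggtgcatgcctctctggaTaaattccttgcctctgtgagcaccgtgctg
Hba-a1: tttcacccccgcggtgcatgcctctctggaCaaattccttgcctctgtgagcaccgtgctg
Hbb-bt: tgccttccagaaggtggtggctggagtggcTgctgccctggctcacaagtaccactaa
Hbb-bs: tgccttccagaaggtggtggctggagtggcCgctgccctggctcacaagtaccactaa

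Counted from the A of the start codon, the alpha copies differ by C381T (Hba-a1 first) over 429 coding bases, an identity of 99.8%. The beta copies differ by C417T (Hbb-bs first) over 444 coding bases, also 99.8%. Both changes are silent. Of the 50-base windows in the Hba-a2 coding sequence, 87.1% occur unchanged in Hba-a1, and of those in Hbb-bt, 92.9% occur unchanged in Hbb-bs. A fragment from such a window cannot be placed in either copy, and the sources used here do not say how the authors' software shared such fragments.

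The rows of the table do not follow the current gene map. The row named Hba-a2 lies at chr11:32283672-32284493 (GRCm38), where RefSeq (GRCm38.p6) has Hba-a1, and 0 rows overlap the RefSeq position of Hba-a2. A joint row of Hba-a1 and Hba-a2 shares that place. Hbb-b2 and the joint row of Hbb-b1 and Hbb-b2 both lie at chr7:103812524-103813923, which RefSeq gives to Hbb-bt, the beta-t copy. RefSeq lists genes named Hbb-b1 and Hbb-b2 at separate coordinates, 38285-39684 and 53494-54867, where these rows do not lie. Levels under these names therefore belong to rows at the Hbb-bt position. Which beta copies the mice carried was not tested. The neighbouring Hbb-bs copy appears under its older name Beta-s at chr7:103826523-103827928.

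Alpha globin mRNA was abundant in both conditions. Hba-a2 was listed at 496 FPKM in q2 and 429.9 FPKM in q1 in the authors' deposited table. A higher level was listed for 216 tested genes in q2 and 222 in q1. Its log2 fold change was 0.21 and did not pass the test (p = 0.597, q = 0.999 by Cuffdiff, in the authors' deposited table). The joint row of Hba-a1 and Hba-a2 was listed at 0.0214 FPKM in q2 and 0.0294 FPKM in q1 and was not tested, so nearly all alpha signal stood in the Hba-a2 row. The theta-like gene Hbq1b of the same cluster was at 1.22 FPKM in q2 and 1.01 FPKM in q1 in the authors' deposited table, and its copy Hbq1a, at 0.0386 FPKM in q2 and 0.386 FPKM in q1, was not tested.

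Beta globin mRNA was more abundant still, and most of it stood in the row that carries neither member's name. Beta-s was at 1581 FPKM in q2 and 954 FPKM in q1 in the authors' deposited table. It was exceeded by 48 tested genes in q2 and 88 in q1. Hbb-b2 was at 347 FPKM in q2 and 224 FPKM in q1, and the joint row of Hbb-b1 and Hbb-b2 at 49.5 FPKM in q2 and 21.4 FPKM in q1 in the authors' deposited table. All of these rows lay above 0 without passing the test. Their log2 fold changes were 0.73 for Beta-s (Cuffdiff p = 0.113), 0.63 for Hbb-b2 (p = 0.144) and 1.21 for the joint row (p = 0.574), each with q = 0.999 in the authors' deposited table. The joint row has the largest ratio of these beta rows, but it held only 12.5% in q2 and 8.74% in q1 of the level at its position. Beta-s stood 3.99-fold above the summed rows at the beta-t position in q2, and 3.89-fold in q1. This ratio between rows was nearly the same in both conditions, with no error to set beside it. It does not measure the split between beta copies, since most 50-base windows of the coding sequence fit both. How the authors' software shared fragments is unknown, and untranslated parts of the mRNA were not compared.

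**Figure D1:**
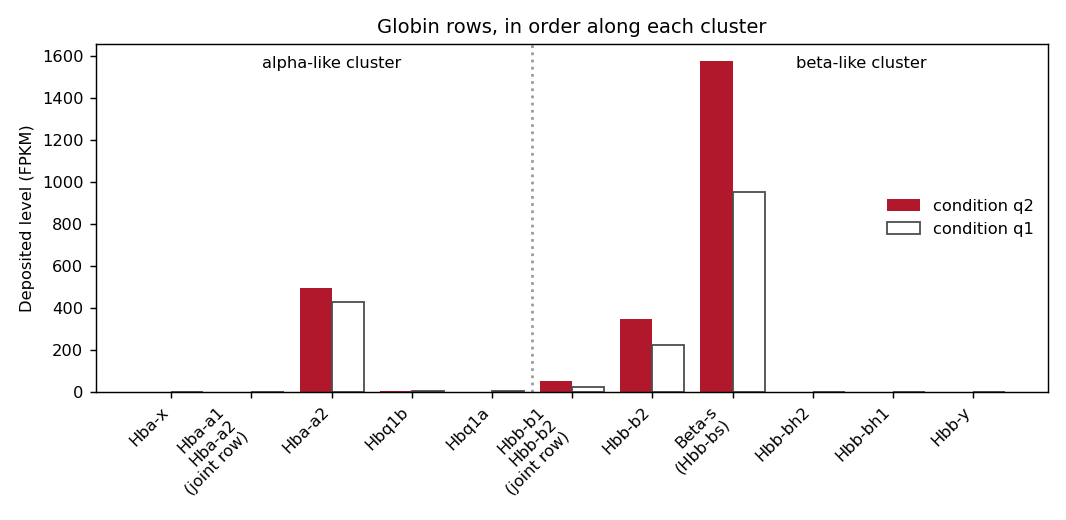
Deposited level in FPKM (vertical axis, linear from 0) of the 11 globin rows in order along the alpha-like and the beta-like cluster, with condition q2 (filled) left of condition q1 (open). Beta-s is the highest bar in both conditions, at 1581 FPKM in q2 and 954 FPKM in q1, and the embryonic genes at the outer ends stand at 0.

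Embryonic globins were listed at 0. Hba-x, which codes for the zeta chain, and Hbb-y, Hbb-bh1 and Hbb-bh2 of the beta cluster had no level in either condition in the authors' deposited table. Summed over all rows of a cluster, beta-like globin came to 1977 FPKM in q2 and 1199 FPKM in q1, or 1.65-fold higher in q2. Alpha-like globin came to 498 FPKM in q2 and 431 FPKM in q1, or 1.15-fold higher in q2. The beta sum exceeded the alpha sum 3.97-fold in q2 and 2.78-fold in q1. These sums have no replicate error, and the alpha sum rests on a table with a single alpha position, so neither the ratio nor its difference was tested. All globin rows together made up 0.359% of the summed FPKM in q2 and 0.256% in q1, which is not a share of reads.

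Alas2, the erythroid form of the enzyme that starts haem synthesis, was the most abundant member after Hba-a2 and Hbb-b2. It was listed at 72.6 FPKM in q2 and 56.8 FPKM in q1 in the authors' deposited table (chrX:150547417-150570622, GRCm38). With a log2 fold change of 0.35 it did not pass the test (p = 0.390, q = 0.999 by Cuffdiff, in the authors' deposited table). It stood 1.90-fold in q2 and 1.96-fold in q1 above Alas1, the form used by most tissues. Alas1 itself was at 38.3 FPKM in q2 and 28.96 FPKM in q1 in the authors' deposited table. The listed level of the erythroid form was thus above that of the general form in cells sorted from muscle, by a similar ratio in both conditions. This difference between genes was not tested.

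Slc4a1 and Klf1 were the low members with the larger ratios. Slc4a1 encodes band 3, the anion exchanger of the red cell membrane, and was at 7.35 FPKM in q2 and 2.93 FPKM in q1 in the authors' deposited table (chr11:102348820-102365281, GRCm38). Its log2 fold change of 1.33 had the lowest p of the members but did not pass the adjustment over all genes (p = 0.00905, q = 0.437 by Cuffdiff, in the authors' deposited table). Klf1, the transcription factor that activates adult beta globin, was at 1.39 FPKM in q2 and 0.352 FPKM in q1 in the authors' deposited table (chr8:84901928-84905295, GRCm38). Its log2 fold change of 1.99 did not pass either (p = 0.273, q = 0.999 by Cuffdiff, in the authors' deposited table). With 1 FPKM added to both levels that value became 0.82, since Klf1 is so low.

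**Figure D2:**
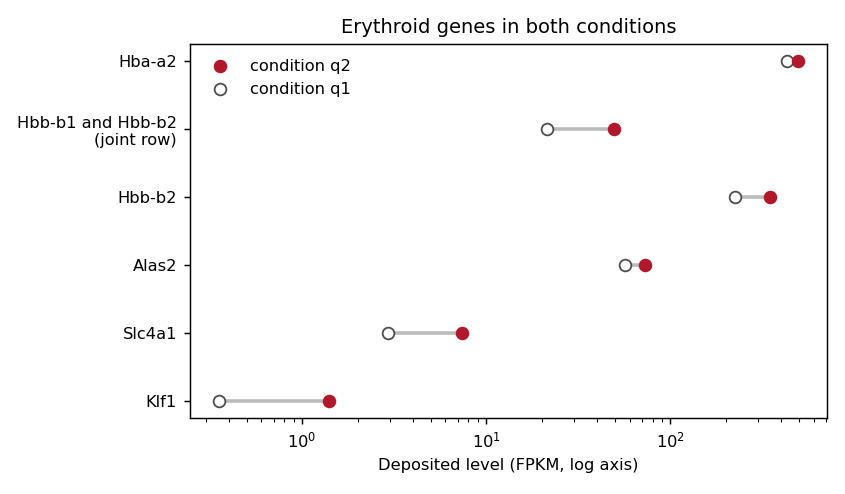
Deposited level in FPKM (horizontal log axis) of the 5 members with a row of their own and of the joint row of Hbb-b1 and Hbb-b2, with filled points for condition q2 and open points for condition q1. Each filled point lies right of its open point, and the gap is widest for Klf1, at 1.39 FPKM in q2 and 0.352 FPKM in q1.

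In order of level, Hba-a2 was followed by Hbb-b2, Alas2, the joint Hbb-b1 and Hbb-b2 row, Slc4a1 and Klf1, and this order was the same in both conditions. The globin sum exceeded Alas2 34.1-fold in q2 and 28.7-fold in q1. Against Slc4a1 it was 337-fold higher in q2 and 557-fold higher in q1, and against Klf1 1776-fold higher in q2 and 4636-fold higher in q1. Klf1 and Slc4a1 thus made up more relative to globin in q2, a difference between ratios that was not tested. None of the 5 members was called at a deposited q below 0.05, against 0.612% of 14858 tested genes, which is 91 genes. At an unadjusted p below 0.05, Slc4a1 alone passed, against 3.72% of all tested genes higher and 2.27% lower. All 5 members, and the joint beta row, lay above 0, and the median log2 fold change of the 5 was 0.63; among all tested genes with a finite value, 48.7% lay above 0 and the median was -0.01. The globins share sequence and all members share the same samples, so this common direction is not 5 independent observations. In these bulk samples, a difference in the number of red cells or precursors and a difference in erythroid RNA per cell cannot be told apart.

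**Figure D3:**
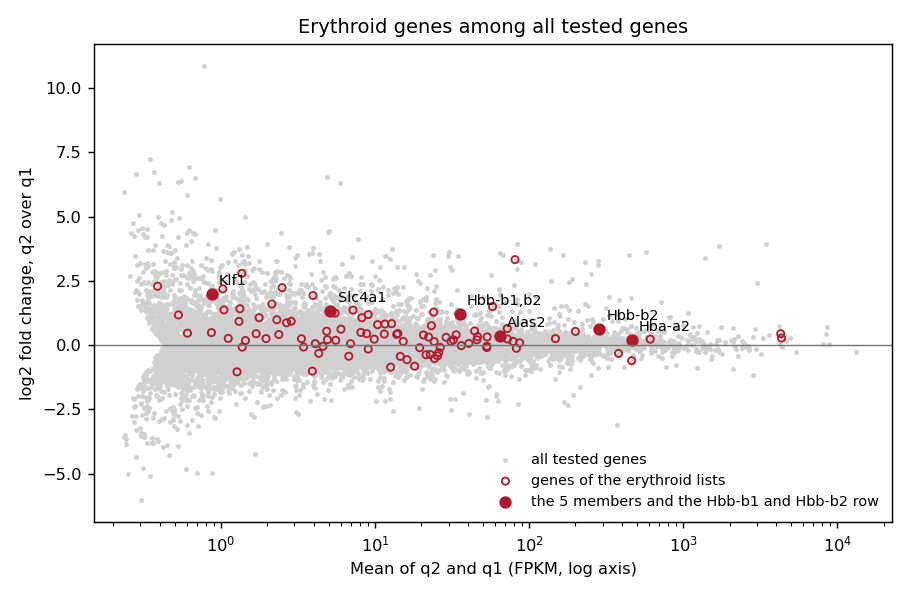
Log2 fold change of q2 over q1 against the mean level of both conditions (FPKM, log axis) for tested genes with a finite value (grey), genes of the erythroid lists (open red) and the members with the joint beta row (filled red). The members lie above 0 within the grey cloud, and the ratios of low genes such as Klf1 lie where all genes scatter widely.

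Klf1 and Gata1 proteins are known to recognise short promoter elements, and 3 promoter windows are shown with their matches to such elements marked. Each run is the 120 bases before the RefSeq start (GRCm38.p6), 5′ to 3′ on the gene's strand, at chr11:32296372-32296491 (+), chr7:103827929-103828048 (-) and chrX:150547297-150547416 (+). Capitals mark every match, on either strand, to CACCC (the core bound by Klf1), GATAA (the core of Gata1 sites), CCAAT and TATAA.
Hba-a2: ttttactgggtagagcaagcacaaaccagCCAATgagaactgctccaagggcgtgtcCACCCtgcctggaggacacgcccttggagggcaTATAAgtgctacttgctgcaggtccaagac
Hbb-bs: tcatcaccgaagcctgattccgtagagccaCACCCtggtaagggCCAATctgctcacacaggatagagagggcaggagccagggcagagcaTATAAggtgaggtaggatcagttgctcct
Alas2: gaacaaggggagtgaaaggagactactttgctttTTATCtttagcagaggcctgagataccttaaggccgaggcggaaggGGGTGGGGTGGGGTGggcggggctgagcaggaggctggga

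CACCC begins 63 bases before the start in Hba-a2 and 90 bases before it in Hbb-bs, and Alas2 has 3 matches in a row on the opposite strand. GATAA was matched in the Alas2 window alone of these 3, also on the opposite strand. Of windows not shown, that of Klf1 also held 1 GATAA match, 80 bases before the start, and those of Hba-a1 and Hbb-bt held 0. No match overlapped another. Of 32851 promoter windows of this length, 31.7% hold CACCC, 10.5% GATAA, 21.3% CCAAT and 11.8% TATAA, so a match by itself is common. The data hold no measure of binding. The promoter windows of the alpha copies Hba-a2 and Hba-a1 are identical over the 297 bases they share, whereas those of Hbb-bt and Hbb-bs match in 93 of 124 aligned columns.

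Further genes linked to red cells were read from 8 lists, which also hold genes that other cells express and leave out Beta-s and the joint beta row. Together they held 97 tested genes, of which 72 lay above 0 (74.2%) and 25 below. A single gene of these lists was called, haptoglobin (Hp), which rose; 0.498% of all tested genes were called higher and 0.114% lower. At an unadjusted p below 0.05, 11 genes of the lists (11.3%) were higher and 3 lower, against 3.72% higher and 2.27% lower among all tested genes. The median log2 fold change of the lists together was 0.32. Neutrophil markers were also higher in q2, by more: all 11 lay above 0, 9 of 11 were called higher, and their median log2 fold change was 3.49. Their summed level was 15483 FPKM in q2 and 1197 FPKM in q1. All 8 endothelial markers lay below 0 and none was called, with a summed level of 15158 FPKM in q2 and 17941 FPKM in q1. The part of these cell types in the erythroid values was not tested.

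**Figure D4:**
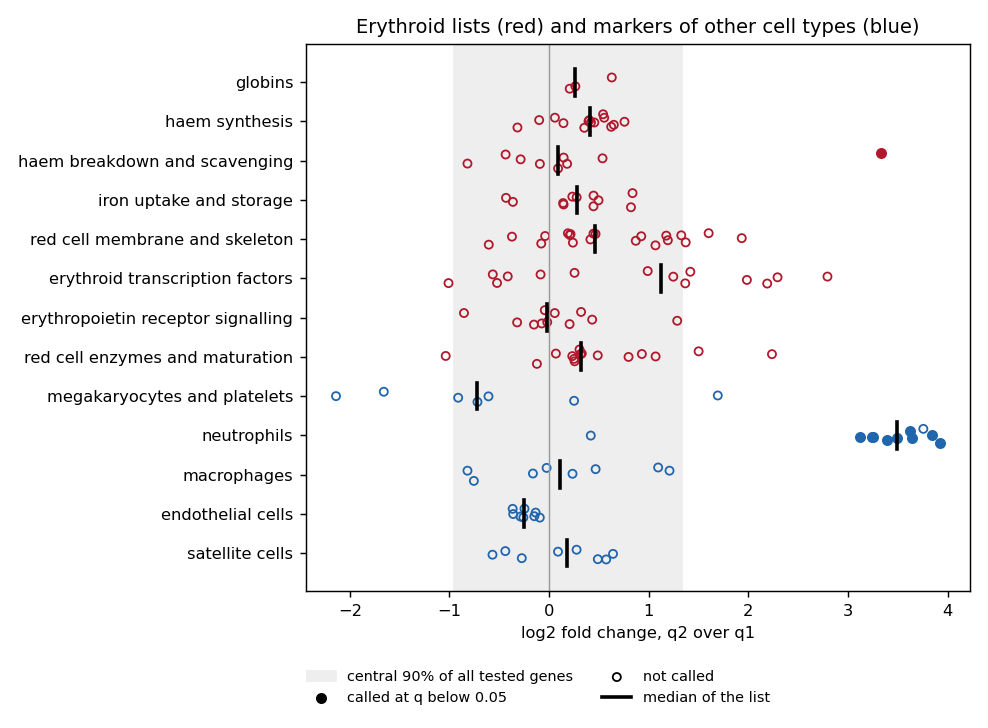
Log2 fold change of q2 over q1 (horizontal axis) for each tested gene of the 8 erythroid lists (red) and of 5 lists of markers of other cell types (blue), with filled points for called genes, black bars for list medians and a grey band for the central 90% of all tested genes. Haptoglobin is the only filled point among the erythroid lists, whereas 9 of 11 neutrophil markers are filled; Beta-s and the joint beta row are outside the globin list and not drawn.

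Haem synthesis genes lay mostly above 0 without a call. Of 14 tested, 12 were above 0, the median log2 fold change was 0.41, and 0 were called by Cuffdiff or passed an unadjusted p of 0.05. Besides Alas2, the most abundant was Tmem14c, a mitochondrial carrier needed for porphyrin transport, at 88.2 FPKM in q2 and 56.2 FPKM in q1 in the authors' deposited table. Most cells express this pathway at a low level, so the list is not restricted to red cells.

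Red cell membrane genes, Slc4a1 among them, lay mostly above 0 without a call. Of 20 tested, 16 lay above 0 and 4 below, and the median log2 fold change was 0.46. The summed level over the list's 21 rows in the authors' deposited table was 633 FPKM in q2 and 782 FPKM in q1. Cuffdiff called 0 of the tested genes, and 3, with Slc4a1, had an unadjusted p below 0.05, all of them higher in q2. Cldn13, a claudin of mouse erythroid cells, was at 6.27 FPKM in q2 and 1.64 FPKM in q1 in the authors' deposited table (Cuffdiff p = 0.0469, q = 0.811). The most abundant members of that list are shared with other tissues. Aqp1, a water channel also made by endothelium, was at 368 FPKM in q2 and 559 FPKM in q1, and Cd47, a general surface protein, at 78.4 FPKM in q2 and 66.4 FPKM in q1 in the authors' deposited table.

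Erythroid transcription factors lay on both sides of 0, with 9 of 14 tested above it. Their median log2 fold change was 1.12, or 0.61 with 1 FPKM added to each level. By Cuffdiff 0 were called, and at an unadjusted p below 0.05 there were 2 higher and 1 lower. Nfe2, a factor of red cells and platelets, was at 10.4 FPKM in q2 and 4.02 FPKM in q1 in the authors' deposited table (Cuffdiff p = 0.0185, q = 0.577). Hemgn, a nuclear protein of blood progenitors, was at 7.75 FPKM in q2 and 3.27 FPKM in q1 in the authors' deposited table (Cuffdiff p = 0.0242, q = 0.649). Gata1, chosen after its values were seen as the partner of Klf1, was at 2.39 FPKM in q2 and 0.344 FPKM in q1 in the authors' deposited table (Cuffdiff p = 0.223, q = 0.999). The 5 tested genes below 0 in this list include Tal1, Lmo2 and Gata2, and the part of endothelial cells in their values was not tested. Tal1, which blood and endothelial cells both use, was at 2.60 FPKM in q2 and 5.24 FPKM in q1 in the authors' deposited table (Cuffdiff p = 0.0345, q = 0.741). Lmo2 was at 25.7 FPKM in q2 and 27.3 FPKM in q1, and Gata2 at 21.9 FPKM in q2 and 29.1 FPKM in q1 in the authors' deposited table, and endothelial cells also express both.

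Genes of iron handling lay mostly above 0 without a call. Of 11 tested, 9 lay above 0 and the median log2 fold change was 0.28. By Cuffdiff 0 were called and 2 had an unadjusted p below 0.05. Slc25a37, the mitoferrin that feeds iron to haem synthesis, was at 14.8 FPKM in q2 and 8.38 FPKM in q1 in the authors' deposited table (Cuffdiff p = 0.0478, q = 0.817). Slc40a1, the iron exporter ferroportin, was at 16.4 FPKM in q2 and 9.19 FPKM in q1 in the authors' deposited table (Cuffdiff p = 0.0473, q = 0.813). The ferritin genes Fth1, at 4958 FPKM in q2 and 3640 FPKM in q1, and Ftl1, at 4765 FPKM in q2 and 3933 FPKM in q1 in the authors' deposited table, are made by all cells.

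Among red cell enzymes and maturation genes, 13 of 15 tested lay above 0 and the median log2 fold change was 0.32. Cuffdiff called 0 of them, and 2 had an unadjusted p below 0.05. Car2, a carbonic anhydrase of red cells and other tissues, was at 85.6 FPKM in q2 and 30.2 FPKM in q1 in the authors' deposited table (Cuffdiff p = 0.0017, q = 0.177). Alox15, a lipoxygenase also found in eosinophils and macrophages, was at 4.12 FPKM in q2 and 0.873 FPKM in q1 in the authors' deposited table (Cuffdiff p = 0.0025, q = 0.225). Gpx1 was at 661 FPKM in q2 and 562 FPKM in q1, and Prdx2 at 161 FPKM in q2 and 135 FPKM in q1 in the authors' deposited table; both encode peroxidases that protect red cells and many others.

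Erythropoietin receptor signalling did not lean to a side. Of 11 tested genes, 5 lay above 0 and 6 below, and the median log2 fold change was -0.02. Cuffdiff called 0 of them, and at an unadjusted p below 0.05 there was 1 higher and 1 lower. Ptpn6, a phosphatase of all blood lineages that dampens the receptor, was at 34.1 FPKM in q2 and 13.98 FPKM in q1 in the authors' deposited table (Cuffdiff p = 0.00225, q = 0.206). Jak2, the receptor's kinase, was at 8.999 FPKM in q2 and 16.3 FPKM in q1 in the authors' deposited table (Cuffdiff p = 0.0217, q = 0.624). The most abundant genes of this list were the feedback inhibitor Socs3, at 339 FPKM in q2 and 423 FPKM in q1, and the kinase gene Lyn, at 59.4 FPKM in q2 and 47.5 FPKM in q1 in the authors' deposited table.

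Genes that clear haem and haemoglobin held the single call. Hp, whose protein binds free haemoglobin and which neutrophils also store in granules, rose to 148 FPKM in q2, against 14.7 FPKM in q1 (log2 fold change 3.33, Cuffdiff q = 0.0108 in the authors' deposited table). Of the 9 tested genes, 5 lay above 0 and the median log2 fold change was 0.09. Cd163, the macrophage receptor for haptoglobin bound to haemoglobin, was at 13.1 FPKM in q2 and 23.1 FPKM in q1 in the authors' deposited table (Cuffdiff p = 0.0442, q = 0.798). Hmox1, which breaks haem down, was at 237 FPKM in q2 and 163 FPKM in q1, and Blvrb, a reductase of the same route, at 89.6 FPKM in q2 and 84.1 FPKM in q1 in the authors' deposited table.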

How the data were processed

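The submitters' processing notes list TopHat2 2.0.9 with Cufflinks 2.2.1. They name mm9, but the authors' gene positions match GRCm38 and are printed 1-based. Annotation, strand setting and depth: not given in the sources used here. Per the file headers, which follow Cuffdiff, the authors deposited 1 value per condition, with replicates pooled. The header names no unit; the values are taken as FPKM, which Cuffdiff writes in this layout. Per the file headers, the authors also deposited a log2 fold change, a test statistic (a score, unused here), a p-value and a q-value per gene. Of 23361 rows, 14858 were tested. A Benjamini-Hochberg adjustment of p over all tested genes gave the deposited q for all of them. A gene was called at q below 0.05.

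No new test was run. Python 3.11.15 with pandas 2.3.3 gave sums, ratios, medians and counts, and the adjustment was tested on simulated data. Genes named were the members, all globin rows, and from each list the called genes, those with an unadjusted p below 0.05 and the 2 with the highest mean. Outside this rule, Hnrnpd was named as the targeted gene, and Pax7, Myf5, Cdh15, Alas1 and Gata1 were also named. One item that this rule names is not reported here. Members and lists were chosen with earlier results of these data known. No label names separate mice, so the authors' p-values may measure technical spread only. Alternatives were pseudocounts, thresholds, a minimum level and centring.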

Additional observations from a re-analysis of the deposited data

How the results depend on the processing

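The 5 members and the joint beta row kept their direction with pseudocounts of 0.1 and 1 and after centring on the median of all tested genes, and none was called at a q below 0.1, or with p adjusted again over genes with at least 1 FPKM or above 0 on both sides. At an unadjusted p below 0.05, 1 member, 11 genes of the lists higher and 3 lower passed. Among all tested genes, 3.72% were higher and 2.27% lower at that threshold. With a pseudocount of 1 the median log2 fold change was 0.29 for membrane genes and 0.61 for transcription factors, and it was 0.99 for transcription factors of at least 1 FPKM. Among the members, a pseudocount of 1 gave a log2 fold change of 0.82 for Klf1, against 1.99 as deposited, and 1.09 for Slc4a1, against 1.33; with a pseudocount of 0.1 Klf1 was at 1.72. No paired analysis was possible because the table holds 1 pooled value per condition, and for the same reason no replicate could be left out. Depth is unknown, so no limit can be set on the embryonic globins listed at 0.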

Other observations

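Markers of megakaryocytes and platelets, the blood lineage closest to red cells, lay mostly below 0. Of 7 tested, 2 lay above 0 and 5 below, and the median log2 fold change was -0.72. Cuffdiff called 0 of them at a q below 0.05, and 2 were lower at an unadjusted p below 0.05. Ppbp, a platelet chemokine, was at 1.93 FPKM in q2 and 8.49 FPKM in q1, and the integrin gene Itgb3 at 1.97 FPKM in q2 and 3.71 FPKM in q1 in the authors' deposited table (Cuffdiff p = 0.00525 and 0.0413). Pf4, a chemokine of platelets and of some macrophages, was at 327 FPKM in q2 and 275 FPKM in q1 in the authors' deposited table. Of 8 tested macrophage markers, 4 lay above and 4 below 0, with a median of 0.11; Cuffdiff called 0, and at an unadjusted p below 0.05 there was 1 higher and 1 lower. Whether the megakaryocyte and erythroid lists differ was not tested.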
